A study of Mus musculus with 95 samples.

Results

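The genes described are 10 members of the axonal cytoskeleton and growth machinery, of 25407 gene symbols listed in each library. They were taken by symbol from a list that was chosen with earlier results of these data known. The list comprises the neurofilament subunits Nefl, Nefm and Nefh, the related filament protein Prph and the neuronal beta-tubulin Tubb3. It also holds the tubulin-binding stathmins Stmn2, Stmn3 and Stmn4, the growth cone protein Gap43 and the vesicle protein Syt4. RNA-Seq was performed on sciatic nerve (SCN), dorsal root ganglia (DRG), glomeruli and kidney cortex, and the SCN and DRG libraries, 47 of 95, carry the results here. The 4 groups were db/db PIO, db/db, db/+ PIO and db/+, each with 6 libraries per tissue, except DRG db/db with 5. All mice were 16-week-old males of the strain BKS.Cg-m +/+ Leprdb/J. The db/db animals carry 2 copies of the Leprdb leptin receptor allele and are a model of type 2 diabetes with obesity. The db/+ animals, which carry 1 copy of the same allele, were the nondiabetic controls. PIO animals received pioglitazone, an agonist of the nuclear receptor PPARG, in chow at 15 mg/kg for 11 weeks. The labels call the libraries of a group biological replicates and do not say whether any library pooled animals.

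Neurofilaments are heteropolymers of light, medium and heavy subunits that fill large myelinated axons and set their calibre, and microtubules built from alpha- and beta-tubulin carry axonal transport. Stathmins bind tubulin and regulate microtubule growth, Gap43 is enriched in growth cones, and synaptotagmins are vesicle proteins of exocytosis. The messenger RNA of these genes is made mainly in neuronal cell bodies, which lie in DRG for sensory axons, whereas a nerve segment holds axons, Schwann cells, fibroblasts, vessels and fat. In bulk tissue of this kind, fewer cells of a type and less RNA per cell cannot be told apart.

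Promoter windows of 300 bases, 250 before to 50 after the start, were found for 3 of the 10 genes in the RefSeq table (GRCm38.p6), namely Tubb3, Stmn3 and Prph. Those of Tubb3 and Stmn3 are printed because both genes passed the test in SCN of db/db mice, in opposite directions. They are written 5′ to 3′ on the gene's strand, and capitals mark TATAA, the core of the TATA box, and GGGCGG, the GC box, each searched on both strands. The Tubb3 window is chr8:123411303-123411602 (plus strand) and the Stmn3 window is chr2:181314451-181314750 (minus strand).
Tubb3: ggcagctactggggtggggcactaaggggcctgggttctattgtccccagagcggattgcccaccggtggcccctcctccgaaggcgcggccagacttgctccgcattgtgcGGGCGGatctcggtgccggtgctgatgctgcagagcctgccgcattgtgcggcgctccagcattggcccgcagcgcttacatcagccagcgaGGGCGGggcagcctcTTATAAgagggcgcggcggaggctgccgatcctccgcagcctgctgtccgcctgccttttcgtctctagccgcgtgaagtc
Stmn3: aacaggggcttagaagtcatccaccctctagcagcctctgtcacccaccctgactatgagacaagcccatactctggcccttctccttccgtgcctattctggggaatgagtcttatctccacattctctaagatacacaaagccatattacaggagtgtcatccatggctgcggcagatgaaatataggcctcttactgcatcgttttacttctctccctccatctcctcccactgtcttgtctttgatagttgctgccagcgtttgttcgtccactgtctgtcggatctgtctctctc
The Tubb3 window holds 2 GC boxes and 2 TATAA matches, which are the same 6 bases read on both strands. The Stmn3 window holds neither motif. Of 32851 windows of the same length in the table, 24.9% hold TATAA and 35.7% hold GGGCGG. The Tubb3 window has 26 CG dinucleotides and the Stmn3 window 6, beside a median of 7 over all windows.

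On mm9, the build of the files, Nefl lies on chromosome 14 (68701920-68707152, plus strand) and Nefm next to it on the opposite strand (68700647-68742903). The annotated span of the Nefm gene covers the whole of Nefl. Syt4 lies on chromosome 18 (31597462-31607069, minus strand) and shares its locus with Gm16871 (31599972-31608753), a long noncoding RNA gene on the opposite strand. Tubb3 lies on chromosome 8 (125935324-125945915, plus strand), inside a longer gene model named Gm20388. The library kit does not mark strand, so reads from stretches shared by genes on opposite strands cannot be assigned by strand. These overlaps are of whole gene spans, and overlap of exons was not examined. The other genes lie on chromosome 3 (Stmn2, 8509527-8561604), 2 (Stmn3, 181041164-181049205), 14 (Stmn4, 66963133-66980517), 11 (Nefh, 4838757-4848067), 16 (Gap43, 42248555-42340764) and 15 (Prph, 98885605-98889409), and all 10 are protein-coding.

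Values were FPKM, fragment counts scaled to transcript length and to the mapped fragments of the library, so that levels of different genes can be set side by side per length. An exact 0 was read as missing and not as a level, because genes that every cell uses were also listed at 0 (Actb in 40 and Eef1a1 in 39 of the 47 SCN and DRG libraries). Of the 240 entries of the 10 genes in SCN, 49 were 0, and of the 230 entries in DRG, 175 were 0. SCN libraries listed 7342 to 10432 genes above 0 and DRG libraries 7533 to 9558, and sequencing depth per library was not used here. In SCN, Mbp, a main myelin gene, reached 7889 to 13038 FPKM, while 7 of the 13 markers of myelinating Schwann cells found in the files were at 0 in all 24 libraries. In DRG, 14 of 19 markers of sensory neurons were at 0 in all 23 libraries, so the ganglion label could be checked against few defining genes. Mrgprd, a receptor of small sensory neurons, had 60.6 to 89.0 FPKM in 10 DRG libraries and 0.02 to 0.27 FPKM in 15 SCN libraries.

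**Figure D1:**
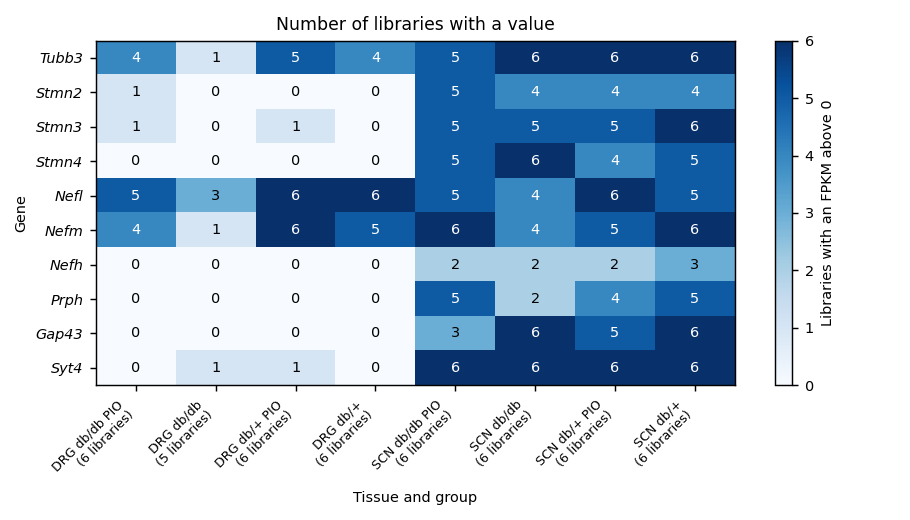
Number of libraries with an FPKM above 0 for each of the 10 genes (rows) in each tissue and group (columns, with the number of libraries), from 0 (white) to 6 (dark blue). Syt4 has 6 values in each SCN group, whereas Stmn4, Nefh, Gap43 and Prph have none in DRG.

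In SCN, 9 of the 10 genes passed the filter on low values, which asks for at least 1 FPKM in at least 5 libraries. Stmn4, a stathmin of the nervous system, did not pass, with values from 0.05 to 1.33 FPKM in 20 libraries. Nefh, the heavy neurofilament subunit, passed but had 2.86 to 4.64 FPKM in 9 libraries and too few values per group for a test. In db/+ nerves the median levels per length were highest for Stmn3, at 21.7 FPKM, followed by Nefl at 12.1, Stmn2 at 11.6, Syt4 at 11.4, Nefm at 9.65, Prph at 9.37, Tubb3 at 7.63, Gap43 at 5.27, Nefh at 3.29 and Stmn4 at 0.27 FPKM. From Nefl down to Nefh the range of each gene overlapped that of the next, so that these neighbours did not differ beyond the spread between libraries. Every Stmn3 value in db/+ nerves lay above every value of the other genes except Nefm, and every Stmn4 value lay below those of the others.

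The first comparison asked what diabetes changed in the nerve, db/db against db/+. Syt4 fell to 0.37 times its db/+ level on the FPKM + 1 scale, Tubb3 fell to 0.60 times and Stmn3 rose to 1.36 times, and these 3 of the 7 genes tested passed the test (limma, adjusted p under 0.05). Over all 4233 genes tested, 14.9% passed, 7.63% as higher and 7.28% as lower. Of the genes that passed, 72.3% were higher under quantile normalization and 42.9% after median-of-ratios rescaling, against 51.2% without rescaling. The median log2 fold change of the 7 genes was -0.12, beside 0.02 over all genes tested.

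Syt4, an endosomal and vesicle synaptotagmin that binds membranes with little calcium dependence, had 2.42, 3.35 and 5.06 FPKM (lowest, median and highest of 6) in db/db nerves, against 8.80, 11.4 and 12.1 FPKM in db/+ nerves. Every db/db nerve lay below every db/+ nerve, a separation that 6.05% of all genes tested showed in this direction. On the log2(FPKM + 1) scale, used for all fold changes below, the change was -1.42 (SE 0.14, adjusted p 3.51e-07, limma), and Syt4 stood at rank 5 of 4233 genes by p. The means were 3.47 ± 0.93 FPKM in db/db nerves and 10.9 ± 1.4 FPKM in db/+ nerves (SD, n = 6 each). The call held without each library in turn and in each of the 9 other settings, with log2 fold changes between -1.65 and -1.31.

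Tubb3, the beta-tubulin isotype used as a neuronal marker, had 2.43, 3.67 and 7.78 FPKM in db/db nerves, against 5.14, 7.63 and 13.1 FPKM in db/+ nerves (lowest, median and highest of 6). The groups overlapped, since db/db replicates 2 and 6, at 7.78 and 6.62 FPKM, reached into the db/+ range, and db/+ replicate 5 alone was above 8.49 FPKM. On the log2 scale the db/db level was lower by 0.75 (log2 fold change -0.75, SE 0.24, adjusted p 0.0424, limma). The call ended without any of db/+ replicates 1, 2, 4 or 5 or db/db replicates 1, 3, 4 or 5 (adjusted p 0.0572 to 0.108). It also ended in 5 of 9 other settings, and over all 9 the adjusted p ran from 0.0355 to 0.416.

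Stmn3, a membrane-attached neuronal stathmin, had 26.7, 35.7, 36.8, 27.3 and 32.2 FPKM in db/db nerves, with replicate 5 at 0. It had 21.7, 21.7, 18.4, 20.8, 30.0 and 26.7 FPKM in db/+ nerves. Of the db/+ nerves only replicate 5, at 30.0 FPKM, lay within the db/db range. The log2 fold change was 0.44 (SE 0.13, adjusted p 0.0325, limma). The call ended without any of db/+ replicates 1, 2, 3 or 4 or db/db replicates 2, 3 or 6 (adjusted p 0.0544 to 0.0708), and the direction turned to -0.40 (adjusted p 0.869) where each 0 was entered as a value. Over the 9 other settings its adjusted p ran from 0.0273 to 0.869.

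Gap43, a growth cone phosphoprotein that axons make again after injury, missed the threshold. It had 6.30, 8.01 and 9.81 FPKM in db/db nerves, against 4.38, 5.27 and 7.29 FPKM in db/+ nerves (lowest, median and highest of 6). The values overlapped between 6.30 and 7.29 FPKM, where db/db replicates 3 and 5 lay beside db/+ replicates 5 and 6. The log2 fold change was 0.44 (SE 0.15, adjusted p 0.0512, limma), and it passed in 3 of 9 other settings (adjusted p 0.0281 to 0.826) and without any of 6 single libraries, with adjusted p of 0.0307 to 0.0478. Those were db/+ replicates 5 and 6, db/+ PIO replicate 3, db/db replicate 3 and db/db PIO replicates 1 and 6.

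Stmn2, the stathmin of growing axons, had 11.1, 18.1, 12.6 and 15.7 FPKM in db/db nerves, against 10.9, 12.3, 17.7 and 9.96 FPKM in db/+ nerves, with the remaining libraries at 0. These ranges lay almost on top of each other, and the log2 fold change was 0.17 (SE 0.20, adjusted p 0.596, limma). Prph had only 2 values in db/db nerves, 11.5 and 11.2 FPKM, and was not tested there, against 9.05, 9.37, 7.65, 9.96 and 11.0 FPKM in db/+ nerves. Prph encodes peripherin, an intermediate filament of peripheral neurons.

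The neurofilament subunits varied more between nerves of 1 group than between groups. Nefl, the light subunit, had 9.44, 13.0, 7.42 and 10.04 FPKM in db/db nerves, against 16.3, 5.43, 12.1, 16.0 and 7.96 FPKM in db/+ nerves. Nefm, the medium subunit, had 4.86, 5.30, 5.04 and 5.70 FPKM in db/db nerves and 3.13, 23.3, 2.72, 17.3, 14.2 and 5.06 FPKM in db/+ nerves. The db/+ replicates 2, 4 and 5 were the 3 highest db/+ nerves for Nefl, for Nefm and for Tubb3. The log2 fold change was -0.12 for Nefl (SE 0.32, adjusted p 0.829) and -0.58 for Nefm (SE 0.49, adjusted p 0.457, limma), so neither difference was larger than the spread between libraries.

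**Figure D2:**
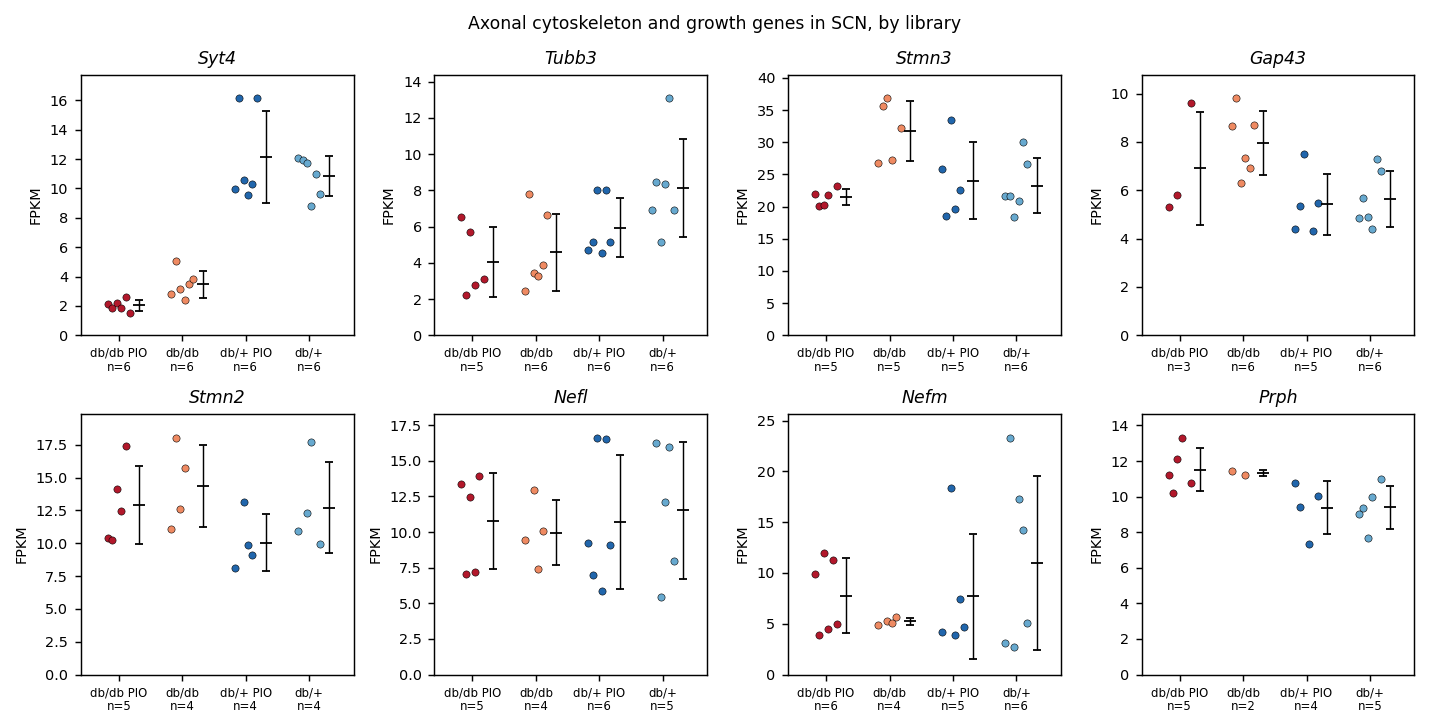
FPKM of 8 of the genes in SCN, 1 point per library with a value above 0, by group, with the mean and SD as a bar beside the points and the number of values under each group. Syt4 is at 1.49 to 5.06 FPKM in all db/db PIO and db/db nerves and at 8.80 to 16.1 FPKM in all db/+ PIO and db/+ nerves, whereas Nefl and Nefm overlap in all 4 groups.

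Markers of neurons and of other cells moved in the same comparison. Of 15 pan-neuronal genes 3 were tested and Ncan, which encodes the matrix proteoglycan neurocan, rose by 0.80 on the log2 scale (adjusted p 0.0165), whereas Snap25 and Scg5 had -0.19 and -0.01 (adjusted p 0.368 and 0.975, limma). None of 4 sensory neuron genes tested passed, at a median log2 fold change of -0.06. They were Avil with -0.29, Ret with -0.07, Runx1 with -0.06 and Pvalb with 0.74. Of the 5 sympathetic neuron genes, Slc6a2, the noradrenaline transporter, was the only one with a value in every SCN library, at 0.15 to 0.40 FPKM in db/db nerves against 0.95 to 3.04 FPKM in db/+ nerves (log2 fold change -1.24, adjusted p 1.34e-05, limma). Th and Dbh, the enzymes that define these neurons, stayed between 0.02 and 0.51 FPKM where listed, and Phox2a was at 0 in all 24 nerves. Among markers of non-myelinating and repair Schwann cells, 3 of 4 tested fell, namely Shh, Ngfr and Gfap. Shh, a signalling protein, had the larger change with a log2 fold change of -1.73 (adjusted p 1.48e-05), and Ngfr, the low-affinity neurotrophin receptor, had -0.65 (adjusted p 0.0175). Mbp, which was the only myelin marker with a value in every nerve, had 8370 to 11059 FPKM in db/db nerves against 10695 to 13038 FPKM in db/+ nerves. Kcnj10, a potassium channel listed with satellite glia, fell to 0.39 to 0.86 FPKM in db/db nerves against 1.01 to 1.87 FPKM in db/+ nerves. None of 4 muscle genes tested passed, but their median log2 fold change was 0.87, beside 0.02 over all genes tested. All 4 were positive, from 0.45 for Ckm to 1.20 for Acta1, with SE of 0.56 to 0.86. Acta1, a muscle actin, had 2.52 to 74.5 FPKM in 5 db/db nerves, against 4.06 to 6.66 FPKM in 4 db/+ nerves. The part of these cells in the values of Syt4 and Tubb3 was not tested.

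Gene lists of the wider axonal machinery held changes in both directions in db/db nerves. Of 9 other tubulins, 5 were tested. Tuba4a, an alpha-tubulin, rose by 0.70 on the log2 scale (adjusted p 0.00359), and Tubb2a, a beta-tubulin, fell by 0.35 (adjusted p 0.0249). Of 15 microtubule-associated and collapsin-response genes, 2 were tested and Mtap2, a microtubule-associated protein of neurons, fell by 0.52 (adjusted p 0.0107). No intermediate filament or linker gene of 6 and no axonal transport motor of 12 had enough values for a test. Of 16 genes of growth cones and regeneration, 10 were tested, 2 rose (Npy and Arg1) and 1 fell (Marcks, an actin-binding membrane protein, log2 fold change -0.82, adjusted p 3.51e-07, limma). Arg1, arginase, had a log2 fold change of 1.59 (adjusted p 0.0138, limma). It was placed here by its list alone, and which cells of the nerve hold its RNA was not tested. Of 19 genes of synaptic vesicles and release, 5 were tested and none passed, at a median log2 fold change of 0.13 beside 0.02 over all genes tested.

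The second comparison asked what pioglitazone changed in the diabetic nerve, db/db PIO against db/db. Syt4 and Stmn3 fell, 2 of 7 genes tested, where 10.1% of 3940 genes passed, 3.63% as lower. Syt4 had 1.49, 2.00 and 2.62 FPKM in db/db PIO nerves, against 2.42, 3.35 and 5.06 FPKM in db/db nerves (lowest, median and highest of 6). Of the db/db PIO nerves only replicate 5, at 2.62 FPKM, reached the lowest db/db nerve, replicate 4. Its log2 fold change was -0.55 (SE 0.14, adjusted p 0.0137, limma). The call held without each library in turn (adjusted p 0.00505 to 0.0399).

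Stmn3 had 22.0, 20.1, 20.3, 21.8 and 23.1 FPKM in db/db PIO nerves, against the 26.7 to 36.8 FPKM in db/db nerves given above. Every db/db PIO value lay below every db/db value, as for 4.8% of all genes tested in this direction. Stmn3 differed by -0.53 on the log2 scale (SE 0.14, adjusted p 0.0181, limma), and replicate 5 was at 0 in both groups. Without db/db replicate 3 the adjusted p was 0.0513 and the log2 fold change -0.48. Both calls ended where each 0 was entered as a value, with adjusted p of 0.507 for Syt4 and 0.921 for Stmn3. The lowest adjusted p over the 9 other settings was 0.00741 for Syt4 and 0.00729 for Stmn3. Both comparisons share the db/db libraries, and Stmn3 stood at a mean of 21.5 ± 1.2 FPKM in db/db PIO nerves (SD, n = 5) and 23.2 ± 4.3 FPKM in db/+ nerves (SD, n = 6).

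The other 5 genes tested did not pass in db/db PIO against db/db. Tubb3 had 6.54, 2.20, 5.72, 2.78 and 3.08 FPKM in db/db PIO nerves, against the 2.43 to 7.78 FPKM in db/db nerves given above (log2 fold change -0.14, adjusted p 0.775, limma). Nefm had 9.87, 3.93, 11.9, 4.49, 11.3 and 4.95 FPKM in db/db PIO nerves, so that 3 nerves lay above its db/db range of 4.86 to 5.70 FPKM, 2 below it and replicate 6 within it (log2 fold change 0.38, adjusted p 0.676, limma). The db/db PIO replicates 1, 3 and 5 were the high nerves for Nefm and also for Nefl, at 13.3, 12.4 and 13.9 FPKM of Nefl, and the log2 fold change of Nefl was 0.08 (adjusted p 0.915, limma). Stmn2 had 10.3 to 17.4 FPKM in 5 db/db PIO nerves and Gap43 5.31 to 9.60 FPKM in 3, with adjusted p of 0.677 and 0.503. Among the tubulins, Tubb6 rose by 0.66 and Tubb4 fell by 0.46 on the log2 scale (adjusted p 0.0401 and 0.0086). Among genes of growth cones and regeneration 10 were tested, Arg1 rose by 2.06 (adjusted p 0.00413) and Marcksl1, a Marcks relative, fell by 0.49 (adjusted p 0.00209). Among pan-neuronal genes Ncan rose by 1.21 (adjusted p 0.00319), as 1 of 3 tested, and none of 4 sensory neuron genes passed. Syp, the synaptic vesicle protein synaptophysin, fell by 0.52 (adjusted p 0.00528) and was 1 of 4 vesicle genes tested. Fabp4, the fatty acid binding protein of adipocytes, was the only adipocyte gene of 9 with enough values and rose by 1.44 (adjusted p 0.00397, limma). Of the 9 adipocyte markers 5 were at 0 in all nerves. Of 4 markers of non-myelinating and repair Schwann cells tested, only Shh passed (log2 fold change -0.63, adjusted p 0.0293, limma). It had 0.16 to 0.48 FPKM in 6 db/db PIO nerves, against 0.69 to 1.87 FPKM in 5 db/db nerves. The part of fat and of Schwann cells in these values was not tested.

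**Figure D3:**
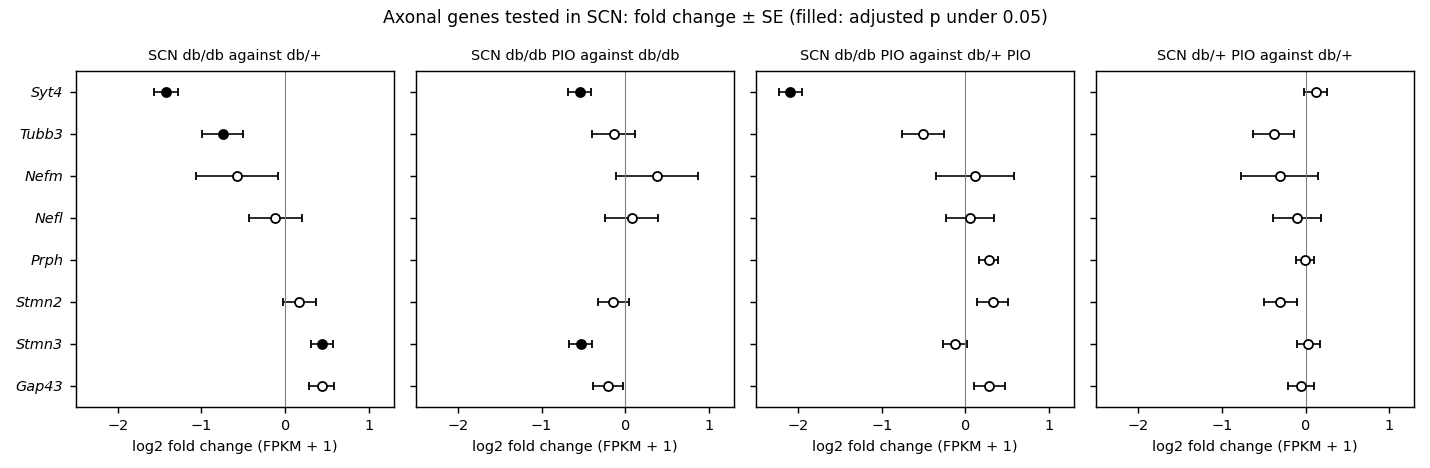
Log2 fold changes on the log2(FPKM + 1) scale (points) with SE (bars) for the genes tested in SCN, in 4 comparisons, filled where the adjusted p was under 0.05. Syt4 is filled and negative in the first 3 panels (-1.42, -0.55 and -2.09) and open at 0.12 in db/+ PIO against db/+.

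With pioglitazone in both arms, db/db PIO against db/+ PIO, Syt4 was at 0.23 times its db/+ PIO level on the FPKM + 1 scale and was the only 1 of 8 genes that passed, where 33.8% of 4402 genes passed. It had 1.49, 2.00 and 2.62 FPKM in db/db PIO nerves, against 9.58, 10.5 and 16.1 FPKM in db/+ PIO nerves (lowest, median and highest of 6). The groups did not overlap, as for 10% of genes tested in this direction, and 2 of the db/+ PIO nerves, replicates 2 and 6, stood above the rest. The log2 fold change was -2.09 (SE 0.14, adjusted p 2.87e-10, limma), which was rank 3 of 4402 by p. Prph had 11.2, 10.2, 12.1, 13.3 and 10.7 FPKM in db/db PIO nerves, against 10.8, 9.41, 7.31 and 10.1 FPKM in db/+ PIO nerves. Its log2 fold change was 0.28 (SE 0.11, adjusted p 0.0659, limma), and the adjusted p was 0.0395 without db/+ PIO replicate 1. Tubb3 did not pass here (log2 fold change -0.51, SE 0.26, adjusted p 0.129, limma).

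Other tubulins changed in that comparison too. Of 7 tested, Tubb2a, Tubb2b, Tubb4 and Tubb5 fell and Tubb6 rose. The largest fall was that of Tubb4, with a log2 fold change of -0.79 (adjusted p 5.69e-06), followed by Tubb2b with -0.75 (adjusted p 1.11e-04). Tubulin isotypes are close in sequence, so reads shared between them may be split unevenly by the authors' counting. Mapt, which encodes tau, and Dpysl2, a collapsin-response protein, fell among 3 microtubule-associated genes tested. Among genes of growth cones and regeneration 3 of 9 tested rose and 2 fell, with log2 fold changes of 3.98 for Arg1 and 1.78 for Npy. Of 3 pan-neuronal genes tested, Ncan rose by 1.85 (adjusted p 1.16e-05) and Thy1, a surface glycoprotein, fell by 0.88 (adjusted p 0.0145), and Runx1, a transcription factor, rose by 0.53 (adjusted p 0.00635) as 1 of 5 sensory neuron genes. Of 3 macrophage genes tested, C1qa and Mrc1 rose by 1.34 and 1.00, whereas Aif1 did not pass (log2 fold change -0.44, adjusted p 0.193, limma). Of 4 markers of non-myelinating and repair Schwann cells tested 3 fell, with log2 fold changes of -2.43 for Shh and -0.92 for Ngfr. The myelin gene Mbp fell by 0.26, and Ckm, the muscle creatine kinase, rose by 2.32 as 1 of 3 muscle genes tested. The part of these cells in the axonal genes' values was not tested.

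In nondiabetic nerves, db/+ PIO against db/+, none of 8 genes tested passed (limma), and none had an unadjusted p under 0.05. Of all genes 0.0778% passed. The log2 fold changes lay between -0.38 for Tubb3 (SE 0.24) and 0.12 for Syt4 (SE 0.14), with adjusted p of 0.535 to 0.990. Syt4 had 9.58, 10.5 and 16.1 FPKM in db/+ PIO nerves, against 8.80, 11.4 and 12.1 FPKM in db/+ nerves, and the groups overlapped.

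The response to pioglitazone was then set between genotypes, in db/db against db/+. The difference of the Syt4 responses was -0.67 on the log2 scale (SE 0.20, adjusted p 0.0436, limma), the only 1 of 7 genes to pass where 6.23% of 3596 genes passed. This call ended without any of db/+ replicates 2, 3 or 4, db/+ PIO replicates 2, 3 or 6, db/db replicates 2, 3, 5 or 6, or db/db PIO replicates 2, 3, 4 or 6 (adjusted p 0.0501 to 0.0854). It also ended in 3 of 8 other settings, with adjusted p of 0.0344 to 0.712 over the 8. For Stmn3 the difference was -0.57 (SE 0.19, adjusted p 0.0882, limma), and the adjusted p was 0.0348 to 0.0492 without db/+ replicate 5 or db/+ PIO replicate 2. The remaining 5 genes had adjusted p of 0.575 or more.

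In DRG, 3 of the 10 genes passed the filter on low values, Nefl, Nefm and Tubb3. Stmn4, Nefh, Gap43 and Prph were at 0 in all 23 libraries. Stmn2 had a single value of 989 FPKM, in db/db PIO replicate 5. Stmn3 had 1169 FPKM in the same library and 1712 FPKM in db/+ PIO replicate 1. Syt4 had 125 FPKM in db/db replicate 5 and 102 FPKM in db/+ PIO replicate 2. These single values stood above every nerve value of the same gene that was above 0. No group of ganglia had enough of them for a test.

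Nefl had 2886, 3089 and 3139 FPKM in db/db ganglia, with replicates 3 and 5 at 0, against 3513, 3551 and 3734 FPKM in db/+ ganglia (lowest, median and highest of 6). No db/db value reached the db/+ range, as for 8.02% of all genes tested in this direction. Nefl differed by -0.24 on the log2 scale (SE 0.10, adjusted p 0.184, limma), so that Nefl, the only 1 of the genes with enough values, did not pass, although its unadjusted p was 0.0292. Of all 3829 genes tested 4.13% passed. Nefl passed after median-of-ratios rescaling (adjusted p 0.0244) and in a fit of those 2 groups alone (adjusted p 0.0403), and its adjusted p over 8 other settings ran up to 0.878. Nefm and Tubb3 each had 1 value in db/db ganglia, both in replicate 2. The Nefm value was 1141 FPKM, below all 5 values of db/+ ganglia (1386 to 1560 FPKM), and the Tubb3 value was 1830 FPKM, above all 4 of db/+ ganglia (1715 to 1798 FPKM).

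With pioglitazone in both arms, Nefl had 3139, 3279, 3088, 3391 and 2904 FPKM in db/db PIO ganglia, against 3255, 3551 and 4711 FPKM in db/+ PIO ganglia (lowest, median and highest of 6). The groups overlapped between db/db PIO replicates 2 and 5 and db/+ PIO replicate 5. Again the log2 fold change was -0.24 (SE 0.09, adjusted p 0.0924, limma), with an unadjusted p of 0.0127, and the adjusted p was 0.0425 after median-of-ratios rescaling and at most 0.859 over 9 other settings. Nefm had 1266, 1291, 1467 and 1170 FPKM in db/db PIO ganglia, against 1248, 1352 and 1976 FPKM in db/+ PIO ganglia (log2 fold change -0.16, adjusted p 0.428, limma). Tubb3 had 1686, 1565, 1936 and 1810 FPKM in db/db PIO ganglia, against 2302, 1718, 1776, 1759 and 1857 FPKM in db/+ PIO ganglia (log2 fold change -0.10, adjusted p 0.576, limma). The highest ganglion for all 3 genes was db/+ PIO replicate 1. None of the 3 genes passed, 1 had an unadjusted p under 0.05, and 8.64% of 4095 genes passed.

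Pioglitazone was followed by no call among these genes in DRG of either genotype. In db/db PIO against db/db ganglia only Nefl had enough values (log2 fold change 0.06, SE 0.11, adjusted p 0.930, limma). In db/+ PIO against db/+ ganglia the log2 fold changes were 0.06 for Nefl, 0.0028 for Nefm and 0.09 for Tubb3, with adjusted p of 0.683 to 0.992 and no unadjusted p under 0.05. No gene of the whole table passed in either comparison, 0% of 3794 and 0% of 4153 genes. The difference of the Nefl responses between genotypes was 0.00038 (SE 0.14, adjusted p 0.999, limma).

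Genes around the axon did pass in diabetic ganglia. Of 16 genes of growth cones and regeneration, 9 were tested in db/db against db/+ and 3 rose. Npy, a neuropeptide that injured sensory neurons make, rose by 1.87 (adjusted p 0.00416), and Marcksl1 by 0.62 (adjusted p 0.0207). In db/db PIO against db/+ PIO ganglia, Sprr1a, a protein of regenerating axons, rose by 2.16 (adjusted p 9.26e-04), Npy rose by 1.87 (adjusted p 0.00317) and Marcks fell by 0.24 (adjusted p 0.0135, limma). In db/db against db/+ ganglia 4 of 6 macrophage genes tested rose, namely C1qc, Cd163, Csf1r and Mrc1, by 0.53 for C1qc, a complement gene (adjusted p 0.0207), and 0.49 for Cd163, a scavenger receptor (adjusted p 0.0203). C1qa, also a complement gene and the only 1 of the 9 macrophage genes with a value in every ganglion, did not pass (log2 fold change 0.39, adjusted p 0.156, limma), at 7.45 to 8.51 FPKM in db/db ganglia against 4.76 to 6.84 FPKM in db/+ ganglia. Of 2 pan-neuronal genes tested in db/db against db/+ ganglia, Ncan fell by 0.44 (adjusted p 0.0207, limma). In db/db PIO against db/+ PIO ganglia both adipocyte genes tested rose, Fabp4 by 2.59 (adjusted p 0.024) and Adipoq by 1.46 (adjusted p 0.0103, limma). The part of these cells in the axonal genes' values was not tested.

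Set against the nerve, the ganglion was far richer in Nefl, Nefm and Tubb3, the 3 genes with enough values in both tissues for a test. In db/+ mice Nefl had 3513, 3551 and 3734 FPKM in DRG, against 5.43 to 16.3 FPKM in SCN. This was a 307-fold difference on the FPKM + 1 scale (log2 8.26, SE 0.22, adjusted p 2.12e-28, limma). Tubb3 was 199-fold higher (log2 7.64, adjusted p 4.77e-25), at 1715 to 1798 FPKM in DRG against 5.14 to 13.1 FPKM in SCN. Nefm was 156-fold higher (log2 7.29, adjusted p 1.43e-18), at 1386 to 1560 FPKM in DRG against 2.72 to 23.3 FPKM in SCN. Every DRG value of these genes lay above every SCN value, as for 27.5% of genes tested in this direction, and 82.2% of 4610 genes differed between the tissues, 30.2% as higher in DRG. Where each 0 was entered as a value, the Tubb3 difference was 4.04 and did not pass (adjusted p 0.159, the highest of 8 other settings, the lowest being 7.82e-27).

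**Figure D4:**
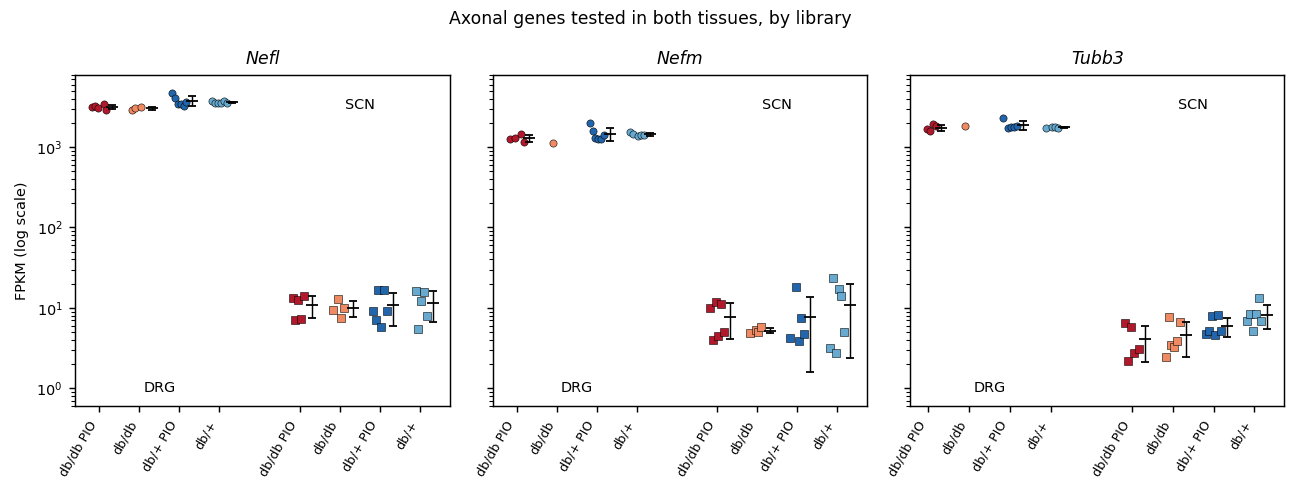
FPKM on a log axis of Nefl, Nefm and Tubb3 by library in DRG (circles, left) and SCN (squares, right), by group, with the mean and SD beside the points. The ganglia lie between 1141 and 4711 FPKM and the nerves between 2.20 and 23.3 FPKM, and the nerves are spread more widely.

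The 3 genes also kept a tighter proportion in ganglia than in nerves. The Nefm level was 0.37 to 0.43 of the Nefl level in 16 ganglia, with a median of 0.40, against 0.41 to 1.44 in 19 nerves, with a median of 0.64. The Nefl level was 1.60 to 2.08 times the Tubb3 level in 13 ganglia, against 1.06 to 3.88 times in 19 nerves. Within nerves, that ratio was 2.04 to 3.20 in 4 db/db PIO and 2.26 to 3.88 in 4 db/db libraries. It was 1.28 to 2.08 in 6 db/+ PIO and 1.06 to 1.91 in 5 db/+ nerves. Without pioglitazone every db/db ratio in nerves lay above every db/+ ratio. In ganglia the order was the other way, at 1.60 to 1.83 in 3 db/db PIO against 1.85 to 2.05 in 5 db/+ PIO libraries. The 1 db/db ganglion with both values had 1.69, against 1.98 to 2.08 in 4 db/+ ganglia. The share of other gene pairs that separate in this way was not computed. These ratios were computed after the values were seen and are given as a description with no test.

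Whether diabetes or pioglitazone moved these genes differently in DRG and SCN could be tested for Nefl alone. The diabetes response differed by -0.13 on the log2 scale (SE 0.35, adjusted p 0.869, limma), where 9.5% of 3253 genes passed. The pioglitazone response in db/db mice differed by -0.02 (SE 0.35, adjusted p 0.985, limma), where 4.36% of 3140 genes passed.

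The glomerulus and cortex libraries lie outside the comparisons above and were fitted after their values were seen, without the filter on low values. In db/db against db/+ glomeruli Nefl was the only 1 of 9 genes tested that passed, where 19% of all genes passed, and in cortex the only 1 of 6, where 8.12% passed. Every db/db value of Nefl lay above every db/+ value in both, a separation in this direction shown by 8.11% of genes in glomeruli and 3.2% in cortex. In db/db PIO against db/db glomeruli Nefl and Nefm passed, 2 of 8 genes, where 18% of all genes passed, and in cortex Nefl alone of 7, where 1.99% passed. Nefm in glomeruli differed by -0.26 on the log2 scale (SE 0.06, adjusted p 0.00714, limma). Its glomerular values were at most 0.40 FPKM, so the 1 added to each FPKM makes this change smaller than that of FPKM itself.

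Genes that followed the mean of those of the 10 that passed the filter, 9 in SCN and 3 in DRG, are named as a description, without a test, since libraries share group and composition. In SCN, among 2888 genes, the closest were Avil, an actin-binding protein of sensory neurons (Pearson's r 0.80 over 20 libraries), Syngr3, a synaptic vesicle protein (0.79 over 24), Ckmt1, a mitochondrial creatine kinase (0.77 over 19), and the symbols LOC100503099 (0.74 over 22) and Gm3724 (0.73 over 24). In DRG, where the mean held Nefl, Nefm and Tubb3, they were Cables1 (0.93), Hoxb6 (0.92), Lin7b (0.91) and Hspe1 (0.90), each over 17 libraries, and Apoe (0.88 over 20), among 2411 genes.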

How the data were processed

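RNA from SCN and DRG of male mice was sequenced after mRNA library preparation with a kit that does not mark strand. The authors aligned reads with TopHat and Bowtie to mm9 and computed FPKM with Cufflinks, as their methods and the submitters' processing notes state, and deposited 1 FPKM value per gene symbol and library. The sources used here name no program versions. The deposited FPKM values were used without rescaling. Read depth per library was not used here, so that precision rests on the spread between libraries. No 2 libraries held identical values.

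An exact 0 was taken as missing. Values were tested as log2(FPKM + 1) with limma 3.58.1 in R 4.3.3, in a linear model that gave each of the 4 groups of a tissue its own mean and moderated variances with an intensity trend. All 8 SCN and DRG groups entered 1 fit for comparisons between tissues. The paper's methods take both tissues from the same groups of mice, so SCN and DRG libraries may share animals. That fit treated them as independent. A gene needed at least 1 FPKM in 5 or more libraries of a tissue, and 3 or more values in each group compared. Libraries at 0 for a gene were left out of its fit. Adjusted p-values are Benjamini-Hochberg values over all genes tested in a comparison, with a threshold of 0.05, and all tests are two-sided. The authors' own test, Cuffdiff, works on aligned reads and was not repeated. The fits were tested on simulated data. Tables and figures were made with Python 3.11.15, numpy 2.4.6, pandas 2.3.3 and matplotlib 3.10.9.

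The 10 genes and 18 further gene lists were chosen with earlier results of these data known. All 10 genes are named. Of a list, the 2 largest called changes are given with values, except for a gene that is not reported here, and defining markers that moved with one of the 10 genes, and the 5 genes most like the mean of the members that passed the filter. The glomerulus and cortex libraries were fitted in the same way without the filter on low values, which was decided after their values were seen. Replicates are separate samples by the labels, and p-values measure the spread between them. Replicate numbers were not found to pair samples. Promoter windows came from RefSeq (GRCm38.p6) and gene positions from GENCODE M1 on mm9. Alternatives tried were a pseudocount of 0.1, no filter on low values, each 0 entered as a value, median-of-ratios rescaling, quantile normalization, only the groups compared, no intensity trend, at least 5 values per group, replicate number as a block and each library left out in turn.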

Additional observations from a re-analysis of the deposited data

Results flagged for a closer look

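Nefl stood out in kidney libraries, which the comparisons above do not use, and was noticed after its values were seen. The authors' paper already lists Nefl among the top glomerular genes raised in db/db mice and lowered by pioglitazone, with larger log2 fold changes. In glomeruli it had 0.76, 1.19 and 2.14 FPKM (lowest, median and highest of 6) in db/db mice, against 0.02, 0.07 and 0.25 FPKM in db/+ mice. Every db/db glomerulus library lay above every db/+ library, as for 8.11% of genes in this direction, and the log2 fold change was 1.01 (SE 0.10, adjusted p 3.99e-06, limma, without the filter on low values), where 19% of 7505 genes passed. In kidney cortex Nefl had 0.82, 0.88 and 1.12 FPKM in db/db mice, against 0.17, 0.24 and 0.60 FPKM in db/+ mice, which is a difference of 0.56 on the log2 scale (SE 0.08, adjusted p 1.36e-04, limma), where 8.12% of 7598 genes passed. In db/db PIO against db/db mice it fell by 1.08 on the log2 scale in glomeruli (adjusted p 1.18e-05) and by 0.64 in cortex (adjusted p 4.33e-04, limma), where 18% and 1.99% of genes passed. The mean of Nefl values above 0 was 1.25 FPKM in db/db, 0.098 in db/+ and 0.045 in db/db PIO glomeruli. At such levels the 1 added to each FPKM makes the kidney log2 fold changes smaller than those of FPKM itself. These levels are a small fraction of those in nerve and ganglion, and Nefm in glomeruli was at 0.11 to 0.40 FPKM in db/db libraries with a single value of 0.10 FPKM in db/+ libraries.

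The response of Syt4 to pioglitazone differed between genotypes in SCN by the test of the difference itself, -0.67 on the log2 scale (SE 0.20, adjusted p 0.0436, limma), with a log2 fold change of -0.55 in db/db and 0.12 in db/+ mice. As given in the report, this call ended without any 1 of 14 libraries.

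Of 43 groups of values examined in SCN and DRG, 3 held a library that stood apart from the others of its group, where chance gives about 5%. These were Tubb3 in DRG db/+ PIO replicate 1 at 2302 FPKM, Stmn4 in SCN db/+ replicate 4 at 1.33 FPKM and Nefm in SCN db/+ PIO replicate 3 at 18.4 FPKM. Without DRG db/+ PIO replicate 1 and the other single libraries, the log2 fold change of Tubb3 in db/db PIO against db/+ PIO ganglia ran from -0.15 to -0.03.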

How the results depend on the processing

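The Syt4 calls in db/db against db/+ and in db/db PIO against db/+ PIO nerves held in every setting and without each library, and the Nefl and Nefm differences between tissues likewise. Where each 0 was entered as a value, 1 gene passed in SCN db/db against db/+ (3 in the report), 0 in db/db PIO against db/db (2) and 0 in the difference between genotypes (1), and 6 in DRG against SCN (3), since more genes then have enough values. The difference between genotypes in SCN also fell to 0 calls with no filter on low values and after median-of-ratios rescaling, and 1 gene, Nefl, passed in DRG db/db against db/+ after that rescaling and with only the groups compared, and in DRG db/db PIO against db/+ PIO after that rescaling. Leaving out 1 library at a time gave 1 to 4 calls in SCN db/db against db/+, 1 to 2 in db/db PIO against db/db and in db/db PIO against db/+ PIO, and 0 to 2 in the difference between genotypes. The cause of these shifts was not tested.

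With the replicate number as a block, 2 genes passed in SCN db/db against db/+, Tubb3 no longer did, and no other call among the 10 genes changed. Same-numbered libraries did not deviate together in every pair of any comparison (at most 4 of 6 pairs with a correlation over 0.1, from -0.25 to 0.56 in SCN db/+ PIO and db/+ and from -0.47 to 0.46 in DRG db/db PIO and db/+ PIO, and 2 of 6 in SCN db/db and db/+, from -0.12 to 0.44).

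Over all genes, 631 passed in SCN db/db against db/+, 399 with only those groups in the fit, 397 with at least 5 values per group and 41 with each 0 as a value. In DRG db/db against db/+ 158 passed, 79 with the block, 83 with at least 5 values per group and 0 with each 0 as a value. Quantile normalization moved the share of higher calls to 44.6% in the SCN difference between genotypes (63.8% in the report's fit) and to 52.7% in SCN db/db PIO against db/db (64.2%), and median-of-ratios rescaling moved it to 59.4% in DRG db/db PIO against db/+ PIO (47.5%, and 57.6% under quantile normalization).

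Directions that turned belonged, except for Stmn3 in db/db against db/+ nerves, to differences that did not pass in the report. With each 0 as a value these were Stmn3 in SCN db/db against db/+ (-0.40), in db/+ PIO against db/+ (-0.74) and between genotypes (0.29), Gap43 (-0.74) and Nefl (-0.53) in db/db PIO against db/+ PIO, Nefl in db/+ PIO against db/+ (0.49), Stmn2 in db/db PIO against db/db (0.53), Tubb3 between genotypes (-0.13) and the Nefl pioglitazone response between tissues (2.11). Quantile normalization gave 0.034 for Gap43 and 0.071 for Prph in SCN db/+ PIO against db/+ and 0.19 for that Nefl response. Median-of-ratios rescaling gave 0.011 for Prph there, and -0.016 for Nefl and -0.065 for Nefm in DRG db/+ PIO against db/+.

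Leaving out single libraries turned only differences that had not passed in the report. In SCN db/+ PIO against db/+ the ranges were -0.16 to 0.013 for Gap43, -0.31 to 0.042 for Nefl, -0.070 to 0.098 for Prph and -0.090 to 0.11 for Stmn3. In DRG they were -0.011 to 0.095 for Nefl and -0.087 to 0.046 for Nefm. In SCN db/db PIO against db/+ PIO they were -0.083 to 0.19 for Nefl and -0.039 to 0.46 for Nefm, in db/db PIO against db/db -0.044 to 0.20 for Nefl and -0.30 to 0.0070 for Tubb3, and in db/db against db/+ -0.34 to 0.020 for Nefl. Between genotypes they were -0.0023 to 0.28 for Stmn2 in SCN and -0.040 to 0.067 for Nefl in DRG, and between tissues -0.26 to 0.091 for the diabetes and -0.14 to 0.10 for the pioglitazone response of Nefl. The fit of only the groups compared was not run for the difference between genotypes, which already uses all 4 groups. Most DRG entries were 0, so 7 of the 10 genes were not testable there.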

Other observations

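Stmn2, often used as a marker of neurons, was also found in glomeruli at levels close to those of the nerve. Glomeruli had 9.12 and 9.59 FPKM in db/db PIO, 7.86 to 10.6 in 3 db/db, 6.87 to 10.1 in 5 db/+ PIO and 5.34 to 9.69 in 6 db/+ libraries, whereas cortex stayed between 0.17 and 0.68 FPKM in all 24 libraries. In db/db against db/+ glomeruli the log2 fold change was 0.11 (adjusted p 0.683, limma, without the filter on low values).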
